A study of Mus musculus with 47 samples.

Results

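The 9 genes described here encode cytochrome P450 enzymes of the mouse kidney: Cyp2a4, Cyp2a5, Cyp2e1, Cyp2j5, Cyp2j11, Cyp2j13, Cyp2d12, Cyp2d26 and Cyp7b1. They were taken by symbol from the 22474 genes of the deposited count table, where each had 1 row, and all 9 passed the filter on low counts that left 18786 genes. Because Cyp2a4 and Cyp2a5 are near-identical copies, their sum is described as well. Polyadenylated RNA had been sequenced from kidney, named metanephros in the labels, of 47 mice of 3 inbred strains (CAST/EiJ, the laboratory strain C57BL/6J, and NZO/HlLtJ), each with genotype WT and treatment None. Females (F) and males (M) of each strain ate either a diet labelled 10% fat + fiber or one labelled 44% fat + fiber from 6 weeks of age, and tissue was taken at 15 weeks. Each of the 12 combinations had 4 libraries, except CAST/EiJ M on 10% fat with 3. The first digits of the sample IDs (77, 81 or 89) split the libraries into 3 runs, whose meaning the labels do not give. Replicate numbers of libraries were assigned here in accession order and pair nothing.

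Cytochrome P450 enzymes are heme proteins that insert an oxygen atom into steroids, fatty acids, drugs and other lipophilic compounds, with electrons from P450 reductase and cytochrome b5. In the kidney they are found mainly in the proximal tubule, the segment that reabsorbs most of the filtrate, and mouse kidney is a classic tissue for sex-dependent P450 expression under androgen control. CYP2A4 is a steroid hydroxylase and CYP2A5 hydroxylates coumarin and oxidises nicotine. CYP7B1 hydroxylates oxysterols and some steroids, CYP2E1 oxidises ethanol and other small molecules, and CYP2J5 is an epoxygenase of arachidonic acid. The other members belong to the CYP2J and CYP2D subfamilies.

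Total counts per library ran from 34394546 to 58433712, with a median of 44759432. Levels are counts-per-million values (CPM), relative to the library's total counts scaled by TMM. The summed CPM of 6 markers of the first proximal tubule segment (S1; Slc34a1, Lrp2 and others) was between 10060 and 16450 over all libraries. It was 13170 to 16010 in F and 12180 to 13560 in M of C57BL/6J, 10060 to 13930 and 10360 to 11760 in CAST/EiJ, and 12420 to 16450 and 10220 to 12070 in NZO/HlLtJ, the last without overlap. That of 7 markers of the third segment (S3; Slc7a13, Slc22a7 and others) was 1257 to 2116 in F and 4740 to 7094 in M, so the sexes did not overlap. Of these 7 markers, 4, 6 and 5 were lower and 1, 1 and 2 higher in F in C57BL/6J, CAST/EiJ and NZO/HlLtJ. The median sum of 4 markers of the second segment (S2) was also lower in F, at 2250, 2329 and 2098 CPM against 3075, 3382 and 2746 CPM in M. In each strain 2 of these 4 markers were lower and 1 higher in F. The S2 sums of CAST/EiJ overlapped, at 2132 to 2773 CPM in F and 2735 to 3653 CPM in M. The sum of 5 podocyte markers was 476.8 to 537.2 CPM in F and 304.9 to 410.8 CPM in M, and all 5 were higher in F in each strain. The medians of 5 intercalated cell markers were 217.1, 222.1 and 195.0 CPM in F and 165.9, 165.9 and 124.5 CPM in M. The part of these differences in the sex differences of the members was not tested. Since these are bulk samples, fewer cells of a type and less RNA per cell cannot be told apart. Of 7 adrenal cortex markers, 5 did not pass the filter on low counts, Cyp11a1 and Cyp11b1 among them, and the other two summed to at most 3.68 CPM. Of 8 hepatocyte markers, Cyp7a1 did not pass the filter, and the other 7 summed to between 11.5 CPM (in CAST/EiJ F) and 251.5 CPM (in NZO/HlLtJ M), with medians of 16.4 and 191.1 CPM in those groups. Among these 7, Apoa1, Fgb, Serpina1e and Cps1 had medians under 1 CPM over all libraries. In C57BL/6J 3 of the 7 were higher and 1 lower in F. In CAST/EiJ and in NZO/HlLtJ 1 was higher and 1 lower.

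Cyp2a4 and Cyp2a5 lie on chromosome 7 of GRCm38, both on the plus strand. Cyp2a4 (ENSMUSG00000074254) spans chr7:26307169-26315088 and Cyp2a5 (ENSMUSG00000005547) chr7:26835305-26843548. Gm42375 is annotated antisense to Cyp2a4. Of the other members, Cyp2j13 overlaps the pseudogene Hspe1-ps6, Cyp2d12 the miRNA gene Gm27924 and Cyp7b1 the snRNA gene Gm23686, each on its own strand. No source used here says whether counting used the strand. In the GENCODE M21 transcripts both coding sequences are 1485 bases long, in 9 exons each, and differ at 23 positions, an identity of 98.5%. The longest identical stretch is 216 bases, and 13.2% of the 100-base windows, the length of the reads, hold no difference. Of all 31-base words of the Cyp2a4 transcripts, 55.9% also occur in those of Cyp2a5. The following coding stretch is shown because it holds 8 of the 23 differences and so marks where reads can be told apart. It covers coding positions 487 to 726, in exons 3 to 5, joined across introns (chr7:26308656-26310777 for Cyp2a4 and chr7:26836818-26838939 for Cyp2a5). Capitals mark the bases that differ.
Cyp2a4: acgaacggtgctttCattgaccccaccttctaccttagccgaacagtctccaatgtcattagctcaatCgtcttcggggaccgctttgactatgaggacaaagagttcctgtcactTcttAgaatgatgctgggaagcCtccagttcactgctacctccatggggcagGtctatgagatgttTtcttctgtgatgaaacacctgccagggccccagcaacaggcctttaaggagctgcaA
Cyp2a5: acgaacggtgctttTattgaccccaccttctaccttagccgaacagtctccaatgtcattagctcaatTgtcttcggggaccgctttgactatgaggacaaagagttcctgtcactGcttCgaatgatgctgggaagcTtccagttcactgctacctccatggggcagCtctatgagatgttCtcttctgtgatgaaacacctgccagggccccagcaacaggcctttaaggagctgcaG
Counted from 1 at the first base of the start codon, the 8 differences are C501T, C555T, T603G, A607C, C625T, G655C, T669C and A726G, with the base of Cyp2a4 first. The reference is the C57BL/6J genome, and the CAST/EiJ and NZO/HlLtJ sequences of these genes were not used here. For no member was it tested whether reads of those strains were lost or misassigned against a C57BL/6J reference.

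The promoters of the pair are shown because the genes differed in level while their upstream sequences are nearly the same. The 250 bases before each RefSeq gene start (assembly GRCm38.p6) are chr7:26306942-26307191 for Cyp2a4 and chr7:26835089-26835338 for Cyp2a5. Over 249 aligned bases they differ at 4, which are in capitals.
Cyp2a4: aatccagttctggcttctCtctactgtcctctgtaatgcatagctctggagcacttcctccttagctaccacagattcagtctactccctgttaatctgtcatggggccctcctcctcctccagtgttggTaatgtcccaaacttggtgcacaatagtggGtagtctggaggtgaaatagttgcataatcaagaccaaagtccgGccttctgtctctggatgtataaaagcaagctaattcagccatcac
Cyp2a5: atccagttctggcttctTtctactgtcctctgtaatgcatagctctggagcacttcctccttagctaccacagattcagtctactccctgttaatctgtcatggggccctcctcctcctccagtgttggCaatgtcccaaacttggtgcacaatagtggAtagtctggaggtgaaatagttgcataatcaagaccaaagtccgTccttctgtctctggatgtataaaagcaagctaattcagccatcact
Counted from 1 at the first base of the Cyp2a4 window, the differences are C19T, T131C, G161A and G205T. The RefSeq promoter table held 7 of the 9 members, without Cyp2d12 and Cyp7b1. GTTAAT, part of the recognition sequence of the HNF1 factors of the proximal tubule, occurred on either strand in the windows of Cyp2a4, Cyp2a5 and Cyp2d26, and in 6.43% of 32851 promoter windows of the same length. AGAACA, an androgen receptor half-site, occurred in Cyp2d26 alone among the 7, and in 16.1% of all windows. AGGTCA, a nuclear receptor half-site, occurred in Cyp2j5 alone among them, and in 14.0% of all windows. These matches are descriptions of letters in this window and not of binding.

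Cyp2a4 was above 145 CPM in every library of C57BL/6J and NZO/HlLtJ and close to 0 in CAST/EiJ, where Cyp2a5 made up nearly all of the pair. In C57BL/6J, Cyp2a4 had a lowest, median and highest CPM of 145.2, 154.5 and 216.9 in F, and of 213.7, 291.3 and 345.1 in M. In NZO/HlLtJ the same 3 values were 199.1, 224.2 and 268.7 in F and 263.8, 344.5 and 423.1 in M. In CAST/EiJ they were 0.139, 0.251 and 0.678 in F and 0.0677, 0.252 and 0.39 in M. These low values rest on 6 to 29 counts per library in F and 3 to 13 in M, against at least 6293 counts in every library of the other strains. The CAST/EiJ libraries therefore lay far below all others, and no overlap with them occurred in either sex. Mean Cyp2a4 was 508.9-fold lower in CAST/EiJ F than in C57BL/6J F, a log2 difference of -8.99 ± 0.16 (SE, adjusted p = 1.16e-33). In M it was 1267-fold lower (-10.30 ± 0.19, adjusted p = 2.74e-33). Whether the few CAST/EiJ counts are Cyp2a4 transcripts or reads of its near-identical copy was not tested. Nor was it tested whether reads of CAST/EiJ Cyp2a4 were counted as Cyp2a5, which would change the values of both genes.

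Cyp2a5 followed another order. Its lowest, median and highest CPM were 11.3, 19.1 and 20.7 in C57BL/6J F and 29.2, 39.3 and 52.7 in C57BL/6J M. In NZO/HlLtJ they were 8.72, 16.9 and 31.7 in F and 13.9, 20.4 and 30.2 in M. CAST/EiJ F spread most widely: the 4 libraries on 10% fat were at 94.1, 113.9, 129.9 and 186.5 CPM, and the 4 on 44% fat at 55.1, 72.0, 178.2 and 227.6 CPM. CAST/EiJ M libraries were at 35.2, 36.7 and 51.7 CPM on 10% fat and at 50.6, 58.4, 68.2 and 88.1 CPM on 44% fat. All CAST/EiJ F libraries were above all F libraries of the other strains. The CAST/EiJ F mean was 7.47-fold that of C57BL/6J F (2.88 ± 0.22, adjusted p = 1.33e-13). In M, where the libraries overlapped, the log2 difference from C57BL/6J was 0.44 ± 0.22 (adjusted p = 0.0812), and without replicate 2 of CAST/EiJ M on 10% fat it was 0.54 (adjusted p = 0.0432).

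The direction of the sex difference of the pair was not shared by the strains. Cyp2a5 was lower in F than in M in C57BL/6J (log2 fold change, F minus M, -1.18 ± 0.22, adjusted p = 2.14e-05) and higher in F in CAST/EiJ (1.25 ± 0.22, adjusted p = 1.20e-05). In NZO/HlLtJ it was -0.18 ± 0.21 (adjusted p = 0.501). The difference between the CAST/EiJ and C57BL/6J effects was itself tested and was 2.44 ± 0.31 (adjusted p = 2.53e-07). For Cyp2a4 the F minus M value was -0.85 ± 0.10 in C57BL/6J (adjusted p = 2.30e-09) and -0.59 ± 0.10 in NZO/HlLtJ (adjusted p = 2.50e-06), both lower in F. In CAST/EiJ, at a few counts per library, it was 0.45 ± 0.34 (adjusted p = 0.287).

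The sum of both genes does not depend on how reads were divided between them. It could still gain or lose reads of other sequences, which was not tested. The pseudogene Cyp2a21-ps holds 19.3% of the 31-base words of Cyp2a4 and 23.4% of those of Cyp2a5. Group means of the sum, with SD over libraries of both diets, were 181.1 ± 24.0 CPM (n = 8) in C57BL/6J F and 332.1 ± 47.02 CPM (n = 8) in C57BL/6J M. They were 132.5 ± 60.5 CPM (n = 8) in CAST/EiJ F and 55.8 ± 18.4 CPM (n = 7) in CAST/EiJ M. In NZO/HlLtJ they were 247.3 ± 28.7 CPM (n = 8) in F and 365.7 ± 60.2 CPM (n = 8) in M. Thus the mean of M exceeded that of F in 2 strains, and the mean of F that of M in CAST/EiJ. The sexes did not overlap in C57BL/6J. They overlapped in CAST/EiJ, at 55.3 to 227.8 CPM in F and 35.5 to 88.3 CPM in M. In NZO/HlLtJ they overlapped too, at 215.5 to 295.2 CPM in F and 283.0 to 448.6 CPM in M. The sum was lower in F in C57BL/6J (-0.91 ± 0.18, adjusted p = 5.84e-05) and in NZO/HlLtJ (-0.56 ± 0.17, adjusted p = 0.007485), and higher in F in CAST/EiJ (1.30 ± 0.19, adjusted p = 6.37e-07). The effect in CAST/EiJ differed from that in C57BL/6J by 2.22 ± 0.26 (adjusted p = 6.27e-08) and the NZO/HlLtJ effect minus that in CAST/EiJ was -1.87 ± 0.26 (adjusted p = 1.36e-06). In M the sum was 5.95-fold lower in CAST/EiJ than in C57BL/6J (-2.67 ± 0.20, adjusted p = 8.37e-14), with no overlap of libraries.

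In F the sum was lower in CAST/EiJ by 0.46 ± 0.18 on the log2 scale (-0.46, adjusted p = 0.02395), with overlapping libraries. This call ended when any 1 of 5 libraries was left out: CAST/EiJ F on 10% fat replicates 1 (-0.40, adjusted p = 0.0618) and 2 (-0.40, adjusted p = 0.0597), CAST/EiJ F on 44% fat replicates 1 (-0.33, adjusted p = 0.0705) and 4 (-0.36, adjusted p = 0.0657), and C57BL/6J F on 44% fat replicate 4 (-0.36, adjusted p = 0.0842). It ended too with the 10% fat groups alone (-0.35, adjusted p = 0.261) and in a fit of those strains alone (-0.47, adjusted p = 0.0604). So the near absence of Cyp2a4 counts in CAST/EiJ F stood beside a sum that was 1.37-fold lower than in C57BL/6J F, against a 508.9-fold lower Cyp2a4. Of the 27 contrasts of sex, strain and diet, the sum passed the threshold in 10.

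Cyp2a4 held 90.2% ± 1.97 (SD, n = 8) of the summed CPM in C57BL/6J F and 88.1% ± 2.66 (n = 8) in C57BL/6J M. In NZO/HlLtJ the share was 92.5% ± 2.24 (n = 8) in F and 94.3% ± 1.37 (n = 8) in M. In CAST/EiJ it was 0.256% ± 0.0885 (n = 8) in F and 0.473% ± 0.315 (n = 7) in M, with no library above 1.10%. Shares were compared by 2-sided exact permutation tests over libraries, adjusted over 9 comparisons. All 4 comparisons of CAST/EiJ with another strain passed (CAST/EiJ minus C57BL/6J, -89.9 percentage points in F and -87.6 in M; NZO/HlLtJ minus CAST/EiJ, 92.2 and 93.8; adjusted p = 4.66e-04 in F and 5.59e-04 in M). NZO/HlLtJ M exceeded C57BL/6J M by 6.19 points (adjusted p = 4.66e-04), while in F the difference was 2.32 points (adjusted p = 0.0699). The exact test found no sex difference past the threshold: F minus M was 2.09 points in C57BL/6J (adjusted p = 0.0936), -0.22 points in CAST/EiJ (adjusted p = 0.0779) and -1.78 points in NZO/HlLtJ (adjusted p = 0.0839). With 1 library left out, the sex difference passed in 2 of 15 fits in CAST/EiJ and 2 of 16 in NZO/HlLtJ. NZO/HlLtJ minus C57BL/6J in F likewise passed in 2 of 16.

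**Figure D1:**
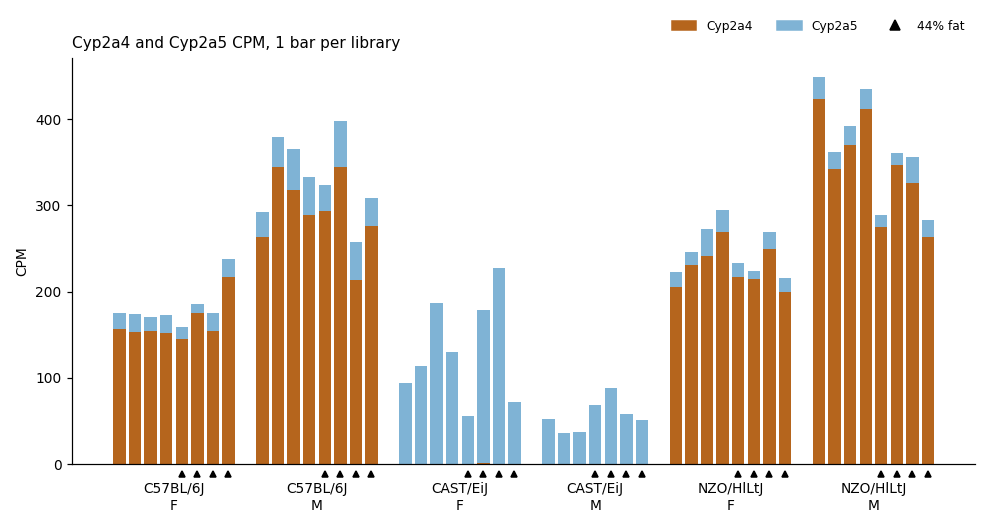
CPM of Cyp2a4 (brown) and Cyp2a5 (blue) stacked in 1 bar per library, ordered by strain and sex, with triangles under the libraries on 44% fat. The C57BL/6J and NZO/HlLtJ bars are mostly Cyp2a4, while the CAST/EiJ bars are Cyp2a5 with at most 0.678 CPM of Cyp2a4.

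Across the 9 members, F and M differed in most comparisons, with M higher more often. In C57BL/6J all 9 passed the threshold, where 47.9% of all genes tested did: 8 were lower in F (22.7% of all genes were) and Cyp2d26 was higher in F (25.1% of all genes were). In CAST/EiJ 6 members passed against 47.6% of all genes, with 4 lower in F (23.9% of all genes) and 2, Cyp2a5 and Cyp2d26, higher (23.7%). In NZO/HlLtJ 6 passed against 49.9% of all genes, with 5 lower in F (24.5%) and Cyp2d26 higher (25.4%). The median log2 fold change of the 9 was -0.85, -0.22 and -0.59 in C57BL/6J, CAST/EiJ and NZO/HlLtJ, beside 0.05, 0.05 and 0.04 over all genes tested. F and M libraries did not overlap for 6 members in C57BL/6J, where 22.7% of all genes tested did not, and for 5 in each of the other strains, where 17.2% of all genes did not. Within the 3 ID runs, the difference of mean log2 CPM had the same sign as the pooled value in all 72 cases of a passed sex difference of a member or the sum. In 14 of these cases, those of NZO/HlLtJ in runs 81 and 89, F and M were on different diets, so that sex and diet cannot be told apart within the run.

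Cyp2j13, on chromosome 4 (chr4:96027534-96077546, minus strand), had the largest sex difference among the members in each strain. In F its lowest, median and highest CPM were 0.66, 1.09 and 1.53 in C57BL/6J, 0.0937, 0.189 and 0.608 in CAST/EiJ and 1.56, 2.22 and 4.57 in NZO/HlLtJ. In M they were 438.6, 518.6 and 653.9 in C57BL/6J, 396.5, 535.2 and 643.4 in CAST/EiJ and 546.6, 665.7 and 743.9 in NZO/HlLtJ. Every M library was above every F library. F counts per library were as few as 5 in CAST/EiJ, against at least 15472 in M. The mean in M was 488.4-fold that in F in C57BL/6J, 2194-fold in CAST/EiJ and 250.8-fold in NZO/HlLtJ. F minus M was -8.95 ± 0.18 (adjusted p = 1.26e-30), -11.22 ± 0.21 (adjusted p = 2.20e-31) and -7.99 ± 0.17 (adjusted p = 3.66e-30) in that order.

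The strains differed in Cyp2j13 mostly in F, at levels of a few CPM or less. CAST/EiJ F was lower than C57BL/6J F by 2.24 ± 0.30 on the log2 scale (-2.24, adjusted p = 6.93e-08), and NZO/HlLtJ F was higher by 1.35 ± 0.19 (adjusted p = 3.97e-07), with no overlap of libraries in either case. In M, CAST/EiJ and C57BL/6J were 0.04 ± 0.13 apart (adjusted p = 0.804), while NZO/HlLtJ was above C57BL/6J by 0.38 ± 0.12 (adjusted p = 0.0101). NZO/HlLtJ M was also above CAST/EiJ M, by 0.34 ± 0.13 (adjusted p = 0.0179), a call that ended without CAST/EiJ M on 10% fat replicate 1 (0.29, adjusted p = 0.0736) or CAST/EiJ M on 44% fat replicate 4 (0.26, adjusted p = 0.0603), in DESeq2 (0.0508) or with the 10% fat groups alone (0.0626).

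Cyp7b1, on chromosome 3 (chr3:18071950-18243338, minus strand), encodes the oxysterol hydroxylase and shares no 31-base word with another gene. C57BL/6J F had a lowest, median and highest CPM of 1.60, 2.24 and 2.77, and C57BL/6J M of 194.6, 233.0 and 254.2. In CAST/EiJ the values were 4.07, 12.6 and 21.5 in F and 62.7, 74.1 and 83.9 in M. In NZO/HlLtJ they were 3.21, 5.82 and 12.8 in F and 139.6, 195.0 and 221.1 in M. Sexes did not overlap in any strain, but the gap was narrowest in CAST/EiJ, where F was highest and M lowest. Mean M over mean F was 101.7-fold in C57BL/6J, 5.98-fold in CAST/EiJ and 29.6-fold in NZO/HlLtJ. F minus M was -6.70 ± 0.24 (adjusted p = 3.68e-22), -2.62 ± 0.20 (adjusted p = 4.02e-13) and -4.91 ± 0.22 (adjusted p = 8.85e-20).

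Each pair of strains differed in this sex effect of Cyp7b1. The effect in CAST/EiJ minus that in C57BL/6J was 4.07 ± 0.30 (adjusted p = 1.59e-12), a difference made of both sexes: CAST/EiJ was 5.51-fold higher in F (2.41 ± 0.23, adjusted p = 3.45e-11) and 3.09-fold lower in M (-1.67 ± 0.20, adjusted p = 4.11e-09). NZO/HlLtJ minus C57BL/6J was 1.79 ± 0.30 (adjusted p = 9.24e-05), with NZO/HlLtJ F 2.78-fold higher (1.45 ± 0.24, adjusted p = 6.73e-06) and NZO/HlLtJ M at -0.34 ± 0.18 (adjusted p = 0.133).

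Cyp2e1, on chromosome 7 (chr7:140763739-140774975, plus strand), was far higher in M than in F. Its lowest, median and highest CPM in M were 1580, 1826 and 2026 in C57BL/6J, 3145, 4649 and 4959 in CAST/EiJ and 1161, 1381 and 1981 in NZO/HlLtJ. In F they were 44.9, 66.9 and 87.4 in C57BL/6J, 301.7, 321.7 and 415.8 in CAST/EiJ and 37.0, 45.5 and 87.5 in NZO/HlLtJ. CAST/EiJ was above the other strains in both sexes without overlap, and M was above F in every strain. The M mean was 27.6-fold the F mean in C57BL/6J, 13.1-fold in CAST/EiJ and 27.2-fold in NZO/HlLtJ. F minus M was -4.82 ± 0.14 (adjusted p = 4.60e-26), -3.72 ± 0.13 (adjusted p = 2.64e-23) and -4.80 ± 0.14 (adjusted p = 3.08e-26), and the CAST/EiJ effect differed from that of C57BL/6J by 1.10 ± 0.17 (adjusted p = 1.20e-05). CAST/EiJ exceeded C57BL/6J 5.15-fold in F (2.38 ± 0.12, adjusted p = 8.92e-19) and 2.44-fold in M (1.28 ± 0.12, adjusted p = 2.47e-11).

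Cyp2j5 and Cyp2j11 are neighbours of Cyp2j13 on chromosome 4 (chr4:96628773-96664154 and chr4:96294508-96348662, both minus strand), but their sex differences were far smaller. Cyp2j5 had a lowest, median and highest CPM of 988.4, 1021 and 1143 in C57BL/6J F and of 1698, 1817 and 1896 in C57BL/6J M. In NZO/HlLtJ the values were 855.5, 928.1 and 1055 in F and 1659, 1727 and 1848 in M. In CAST/EiJ they were 202.9, 316.5 and 375.9 in F and 599.2, 625.6 and 692.8 in M. M was above F in each strain without overlap, by 1.75-fold, 1.86-fold and 2.02-fold in the means of C57BL/6J, NZO/HlLtJ and CAST/EiJ. F minus M was -0.82 ± 0.06 (adjusted p = 3.26e-16), -0.89 ± 0.05 (adjusted p = 1.28e-17) and -1.01 ± 0.06 (adjusted p = 1.00e-18) in the same order. No difference of this effect between strains passed (adjusted p of 0.128 to 0.717), the largest being -0.19 ± 0.08 for CAST/EiJ minus C57BL/6J.

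All CAST/EiJ libraries were below those of the other strains in Cyp2j5 within a sex. CAST/EiJ was 3.29-fold lower than C57BL/6J in F (-1.72 ± 0.06, adjusted p = 1.89e-27) and 2.85-fold lower in M (-1.53 ± 0.06, adjusted p = 8.21e-25). Cyp2j11, in contrast, stayed between 140.8 and 270.9 CPM in all 47 libraries. Its medians were 195.3, 228.8 and 176.2 CPM in F of C57BL/6J, CAST/EiJ and NZO/HlLtJ, and 225.9, 251.3 and 186.9 CPM in M. F minus M passed in C57BL/6J (-0.18 ± 0.05, adjusted p = 0.00225), and was -0.09 ± 0.05 in CAST/EiJ (adjusted p = 0.126) and -0.05 ± 0.05 in NZO/HlLtJ (adjusted p = 0.394). Summed over the 7 Cyp2j genes that passed the filter on low counts, CPM was 1284 ± 70.3 (SD, n = 8) in F and 2614 ± 111.0 (n = 8) in M of C57BL/6J. The sum was 562.5 ± 59.8 (n = 8) and 1433 ± 115.9 (n = 7) in F and M of CAST/EiJ, and 1159 ± 67.2 (n = 8) and 2629 ± 132.0 (n = 8) in those of NZO/HlLtJ.

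The members of the CYP2D subfamily, both on chromosome 15, differed from the others and from each other. Cyp2d26 (chr15:82790107-82794245, minus strand) was the member that was higher in F in every strain. Its lowest, median and highest CPM were 246.1, 256.2 and 303.3 in C57BL/6J F and 65.9, 86.5 and 97.7 in C57BL/6J M. The values were 51.8, 72.7 and 83.7 in F and 16.1, 17.9 and 32.6 in M of CAST/EiJ, and 289.1, 312.8 and 351.9 in F and 65.9, 88.7 and 115.0 in M of NZO/HlLtJ. All F libraries were above the M libraries of their strain. F minus M was 1.64 ± 0.11 (adjusted p = 9.83e-16), 1.84 ± 0.11 (adjusted p = 4.04e-16) and 1.88 ± 0.10 (adjusted p = 1.27e-17) in C57BL/6J, CAST/EiJ and NZO/HlLtJ, and these effects did not differ past the threshold (adjusted p of 0.42 to 0.92). CAST/EiJ was lower than C57BL/6J in both sexes, 3.73-fold in F (-1.90 ± 0.11, adjusted p = 4.89e-18) and 4.18-fold in M (-2.10 ± 0.12, adjusted p = 4.00e-18).

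Cyp2d12 (chr15:82555108-82559413, plus strand) separated the strains in the order CAST/EiJ, C57BL/6J, NZO/HlLtJ without overlap in either sex. Its lowest, median and highest CPM were 456.1, 510.6 and 598.2 in F and 533.2, 610.1 and 685.6 in M of CAST/EiJ. They were 19.1, 30.1 and 40.2 in F and 34.6, 45.9 and 63.6 in M of C57BL/6J, and 5.64, 7.37 and 10.8 in F and 2.54, 9.13 and 15.9 in M of NZO/HlLtJ. CAST/EiJ was 17.1-fold above C57BL/6J in F (4.13 ± 0.20, adjusted p = 6.43e-19) and 12.95-fold in M (3.68 ± 0.20, adjusted p = 1.59e-17), and 66.7-fold and 67.7-fold above NZO/HlLtJ in F and M. The sex difference passed in C57BL/6J alone (-0.68 ± 0.19, adjusted p = 0.00267, and 0.056 with the 10% fat groups alone), with values of -0.22 ± 0.18 (adjusted p = 0.334) in CAST/EiJ and -0.20 ± 0.20 (adjusted p = 0.439) in NZO/HlLtJ, and it did not differ between strains past the threshold (adjusted p of 0.303 to 0.984). In a fit of CAST/EiJ libraries alone the CAST/EiJ value passed too (adjusted p = 0.00621), as did its difference from C57BL/6J in a fit of those 2 strains (adjusted p = 0.0436). Of its 31-base words 15.8% occur in other genes, 10.1% in Cyp2d9. Cyp2d12 counts could therefore hold reads of related genes, in proportions that were not tested.

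**Figure D2:**
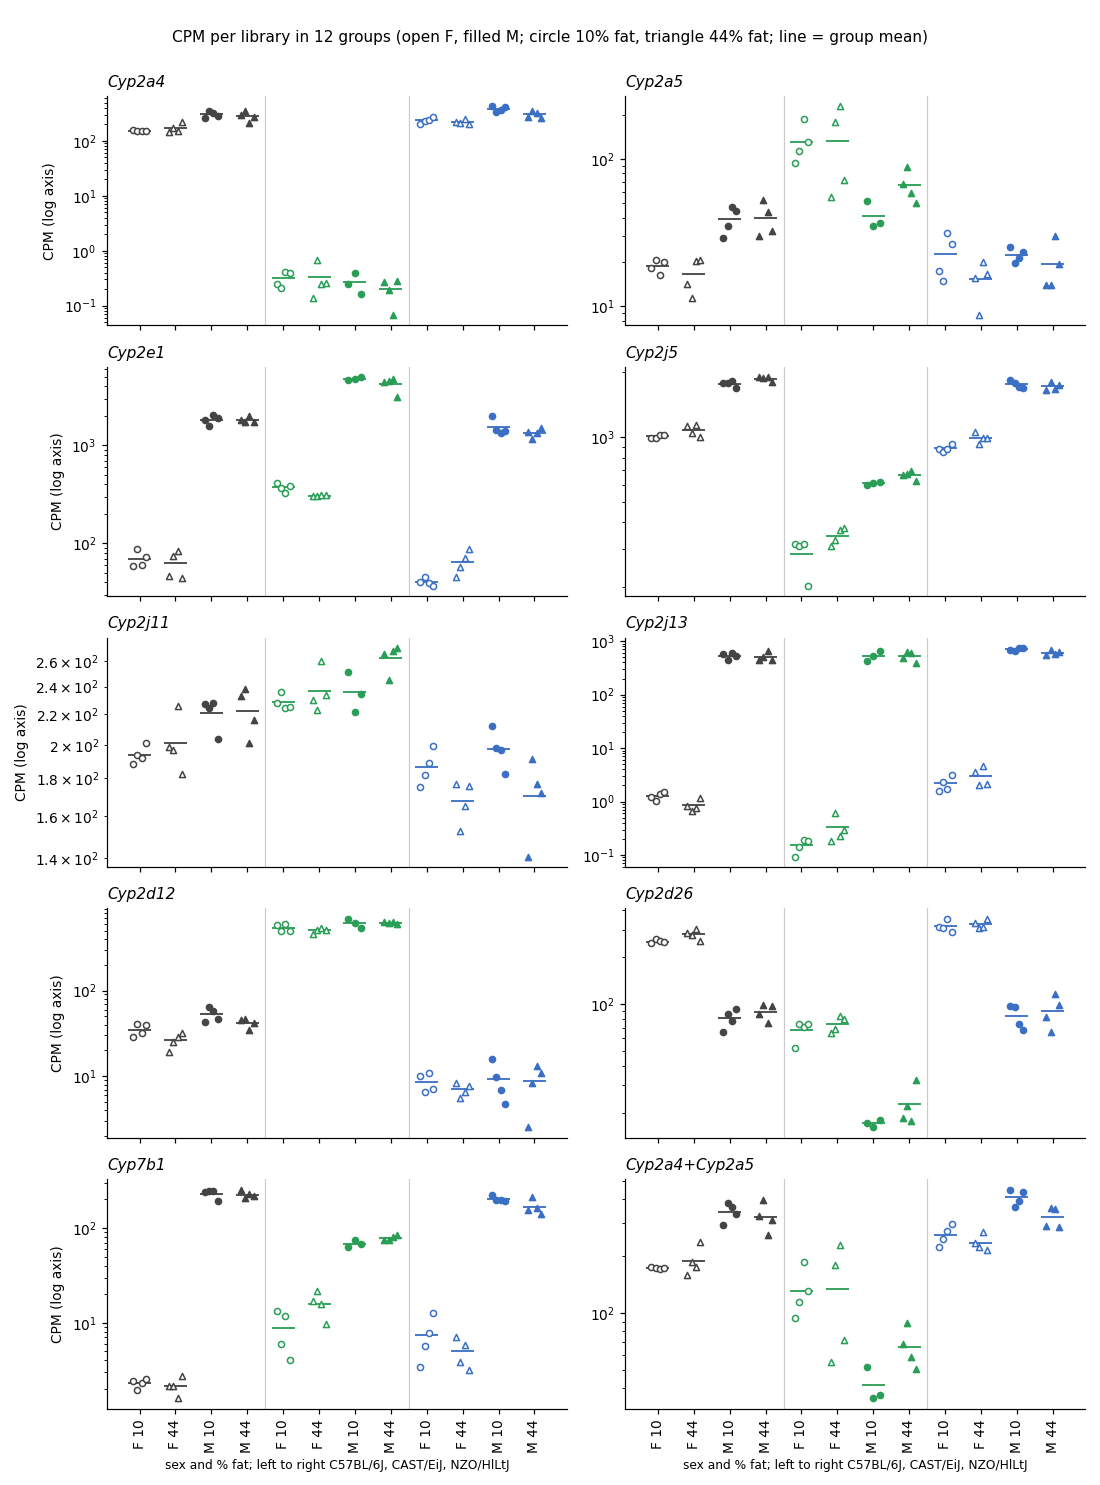
CPM on a log axis for the 9 members and the sum of Cyp2a4 and Cyp2a5 in each of the 47 libraries, by strain, sex and % fat, with open symbols for F, filled symbols for M and a line at each group mean. Cyp2j13, Cyp7b1 and Cyp2e1 separate M from F in all strains, and Cyp2a4 and Cyp2d12 separate CAST/EiJ from the other strains.

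**Figure D3:**
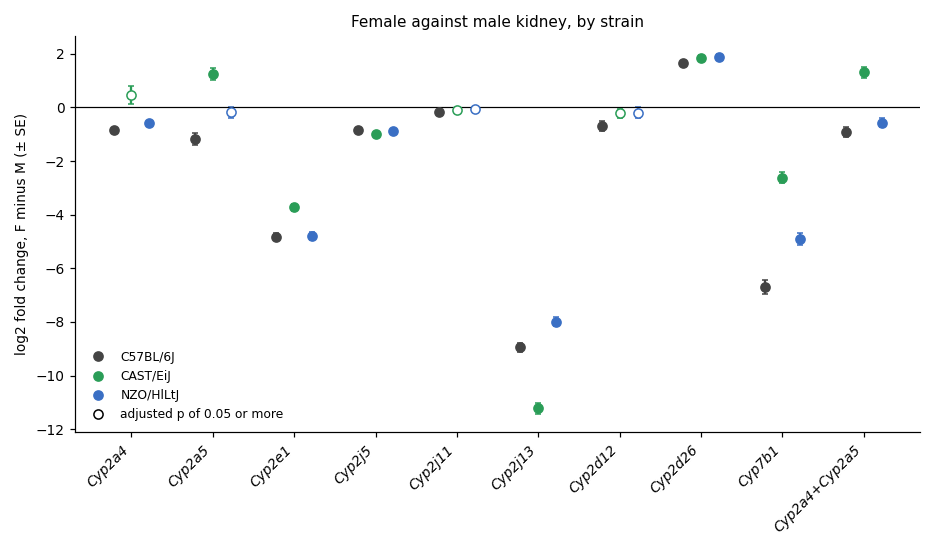
Log2 fold change, F minus M, with its SE for each member and the sum in C57BL/6J (grey), CAST/EiJ (green) and NZO/HlLtJ (blue), open where the adjusted p was 0.05 or more. Cyp2j13 ranges from -11.22 to -7.99, Cyp2d26 lies above 0 in all strains, and Cyp2a5 and the sum change sign between C57BL/6J and CAST/EiJ.

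Differences of the sex effect between strains passed for 5 members in CAST/EiJ minus C57BL/6J (13.2% of all genes tested passed), 3 in NZO/HlLtJ minus C57BL/6J (4.95%) and 5 in NZO/HlLtJ minus CAST/EiJ (14.3%). These 3 contrasts share strains. Cyp2a5, Cyp2j13 and Cyp7b1 passed in all 3, and Cyp2a4 and Cyp2e1 in the 2 that involve CAST/EiJ. The Cyp2a4 calls rest on 6 to 29 counts per library in CAST/EiJ F and 3 to 13 in CAST/EiJ M. Those of Cyp2j13 with CAST/EiJ rest on 5 to 26 counts per library in CAST/EiJ F. For Cyp2j13, NZO/HlLtJ minus C57BL/6J was 0.96 ± 0.22 (adjusted p = 0.00595), but 0.26 (adjusted p = 0.388) in limma on the deposited variance-stabilized values, a scale that compresses low levels. The call for Cyp2a5 in NZO/HlLtJ minus C57BL/6J (1.00 ± 0.30, adjusted p = 0.0478) ended when any 1 of 24 of the 32 libraries was left out (adjusted p of 0.0541 to 0.0875), without the filter on low counts (0.0587) or without the run term (0.088). That for Cyp2a4 in NZO/HlLtJ minus CAST/EiJ (-1.04 ± 0.35, adjusted p = 0.0414) ended for 10 of 31 (adjusted p of 0.0502 to 0.1585).

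Between strains within a sex, most members differed, and so did most genes where CAST/EiJ took part. The part of read loss or misassignment against a C57BL/6J reference in these differences was not tested. In F, 9 members passed in CAST/EiJ against C57BL/6J (61.9% of all genes tested), 8 in NZO/HlLtJ against C57BL/6J (37.7%) and 9 in NZO/HlLtJ against CAST/EiJ (60.4%). In M the counts were 7 (60.9%), 6 (42.6%) and 9 (60.9%). For Cyp2j5 and Cyp2e1, NZO/HlLtJ and C57BL/6J were closer to each other than either was to CAST/EiJ. In NZO/HlLtJ minus C57BL/6J, Cyp2j5 was -0.15 ± 0.05 in F (adjusted p = 0.0297) and -0.08 ± 0.06 in M (adjusted p = 0.265), and Cyp2e1 -0.33 ± 0.12 in F (adjusted p = 0.0323) and -0.34 ± 0.12 in M (adjusted p = 0.0185). Cyp2j11 was lower in NZO/HlLtJ in both sexes, by 0.15 ± 0.05 in F (-0.15, adjusted p = 0.0137) and 0.28 ± 0.05 in M (-0.28, adjusted p = 1.10e-05). Cyp2a4 was higher in NZO/HlLtJ, by 0.51 ± 0.10 in F (adjusted p = 5.29e-05) and 0.25 ± 0.10 in M (adjusted p = 0.0394), and Cyp2a5 was lower there in M (-0.84 ± 0.22, adjusted p = 0.001865).

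Several of these smaller strain calls lay so close to the threshold that leaving out 1 library ended them. The call for Cyp2a4 in M ended when any 1 of 8 of the 16 libraries was left out (adjusted p of 0.0566 to 0.0993), and that for Cyp2e1 in F for 8 of 16 (0.063 to 0.0925). That for Cyp2j5 in F ended without C57BL/6J F on 44% fat replicate 1 (-0.14, adjusted p = 0.0683) or 3 (-0.14, adjusted p = 0.0553), C57BL/6J F on 10% fat replicate 4 (-0.14, adjusted p = 0.0636) or NZO/HlLtJ F on 44% fat replicate 2 (-0.13, adjusted p = 0.0659). Within the ID runs the sign was that of the pooled value in 157 of 159 cases of a passed strain difference. The others were Cyp2a4 in M in run 81 (-0.23, NZO/HlLtJ minus C57BL/6J) and Cyp2e1 in F in run 89 (0.46 for the same strains). In runs 81 and 89 the NZO/HlLtJ libraries of each sex were on a single diet, and those of the other strains on both. Comparisons with NZO/HlLtJ therefore mix strain and diet within these runs. In both exceptions the NZO/HlLtJ libraries were all on 44% fat. With the 10% fat groups alone, NZO/HlLtJ against C57BL/6J passed for 5 members in F, without Cyp2j5, Cyp2j11 and Cyp2d26, and for 2 in M, without Cyp2a5, Cyp2e1, Cyp2j11 and Cyp2j13. The Cyp2a4 call in M ended without the filter on low counts (adjusted p = 0.0507) or the run term (0.0531), and the Cyp2e1 calls in a fit of those strains alone (0.0707 in F and 0.0505 in M). The sum, 0.51 ± 0.18 in F (adjusted p = 0.0227), was 0.59 with the 10% fat groups alone (adjusted p = 0.0881). Cyp7b1 in F of NZO/HlLtJ against CAST/EiJ was -0.96 ± 0.21 (adjusted p = 1.44e-04), and -0.30 with the 10% fat groups alone (adjusted p = 0.436).

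Levels of different genes are compared per kilobase of exon, with all annotated exons of a gene joined. This length is 4690 bases for Cyp2j13 and 3880 for Cyp2d12, against 1738 to 2345 for the others, and it affects their rank. In M of C57BL/6J, Cyp2e1 had 846.1 ± 70.3 CPM per kilobase (SD, n = 8) and Cyp2j5 776.8 ± 30.0, a difference within the sum of their SDs. Cyp2a4 followed at 168.5 ± 25.3, then Cyp2j11 at 115.5 ± 6.97, Cyp2j13 at 111.4 ± 16.9 and Cyp7b1 at 105.4 ± 9.82. Cyp2j13 differed from Cyp2j11 and from Cyp7b1 by less than its own SD. Cyp2d26 (47.4 ± 6.18), Cyp2a5 (19.0 ± 4.23) and Cyp2d12 (12.2 ± 2.37) were lowest. In F of the same strain the order began with Cyp2j5 (444.0 ± 25.4), Cyp2d26 (148.2 ± 11.5), Cyp2j11 (103.0 ± 6.82) and Cyp2a4 (94.0 ± 13.3), and ended with Cyp2a5 (8.53 ± 1.68), Cyp2d12 (7.90 ± 1.82), Cyp7b1 (1.04 ± 0.169) and Cyp2j13 (0.228 ± 0.0658). Here Cyp2a5 and Cyp2d12 differed by less than the SD of either, and Cyp2j11 and Cyp2a4 by less than the SD of Cyp2a4. In M of CAST/EiJ, Cyp2e1 led at 2066 ± 280.2 CPM per kilobase (n = 7), followed by Cyp2j5 (273.0 ± 15.4) and Cyp2d12 (158.5 ± 11.7), with Cyp2a4 last (0.133 ± 0.059).

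Diet moved few of these genes past the threshold. As the mean of both sexes, 44% against 10% fat passed for 0 members in C57BL/6J (0.0266% of all genes tested passed), 0 in CAST/EiJ (0.99%) and 1 in NZO/HlLtJ (3.62%) in edgeR's test. At an unadjusted p under 0.05 the counts were 0, 4 and 3, while DESeq2 called 0, 1 and 1 and limma 0, 0 and 1. The member that passed was Cyp2j11, lower on 44% fat in NZO/HlLtJ (log2 fold change, 44% minus 10% fat, -0.18 ± 0.05, adjusted p = 0.0259). In NZO/HlLtJ M its libraries were at 182.4, 196.9, 197.7 and 212.2 CPM on 10% fat and at 140.8, 171.8, 177.1 and 191.3 CPM on 44% fat. In NZO/HlLtJ F they were at 174.9, 182.1, 189.1 and 199.5 CPM on 10% fat and at 152.6, 165.0, 175.6 and 176.7 CPM on 44% fat. Libraries overlapped in both sexes, with the lower end always on 44% fat.

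By strain and sex, the counts of members past the threshold were 0 in C57BL/6J F (0% of all genes), 0 in C57BL/6J M (0.00532%), 0 in CAST/EiJ F (0.144%), 0 in CAST/EiJ M (0.58%), 0 in NZO/HlLtJ F (0.149%) and 1 in NZO/HlLtJ M (3.51%). At an unadjusted p under 0.05 the 5 counts of 0 became 0, 0, 2, 1 and 2, and DESeq2 called 1 in NZO/HlLtJ F and 0 in the other 4, limma 0 in all 5. The call in NZO/HlLtJ M was Cyp2j11 (-0.25 ± 0.07, adjusted p = 0.0456). Only run 77 held both diets of NZO/HlLtJ M, and within it the difference of mean log2 CPM was -0.32. This call ended without NZO/HlLtJ M on 10% fat replicates 1 (-0.21, adjusted p = 0.208), 2 (-0.25, adjusted p = 0.0628) or 3 (-0.24, adjusted p = 0.0662), or on 44% fat replicates 1 (-0.16, adjusted p = 0.2995) or 4 (-0.24, adjusted p = 0.107). It ended too without the run term (-0.21, adjusted p = 0.0698), in limma (-0.25, adjusted p = 0.0567) and in a fit of NZO/HlLtJ alone (-0.27, adjusted p = 0.206). The mean over both sexes lost its call without 10% fat replicate 4 of F (-0.17, adjusted p = 0.0661) or 1 of M (-0.17, adjusted p = 0.0618), or 44% fat replicate 2 of F (-0.16, adjusted p = 0.0746) or 1 of M (-0.14, adjusted p = 0.103), and in a fit of NZO/HlLtJ alone (-0.18, adjusted p = 0.122).

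The DESeq2 call in NZO/HlLtJ F was Cyp2e1, which was at 37.0, 39.6, 39.9 and 45.6 CPM on 10% fat and at 45.5, 57.6, 70.9 and 87.5 CPM on 44% fat, so that the highest of the first group just passed the lowest of the second. The runs differ here too: only run 77 held both diets of NZO/HlLtJ F, and the highest libraries, at 70.9 and 87.5 CPM, were those of run 89. Within run 77 the difference of mean log2 CPM was 0.26. Over all 8 libraries the log2 fold change was 0.73 ± 0.18 (edgeR, adjusted p = 0.0799). In DESeq2 the adjusted p was 0.00629, and in edgeR without NZO/HlLtJ F on 44% fat replicate 1 it was 0.0125 (0.89). In NZO/HlLtJ M the same gene was at -0.25 ± 0.17 (adjusted p = 0.452). Diet groups of a member or the sum did not overlap in 3 cases, none of which passed. They lay in CAST/EiJ F, CAST/EiJ M and NZO/HlLtJ M, where 3.39%, 10.7% and 6.79% of all genes tested had diet groups that did not overlap. In C57BL/6J F, C57BL/6J M and NZO/HlLtJ F, with 0 such members, the shares of all genes were 3.74%, 3.83% and 7.31%. Cyp2e1 in CAST/EiJ F had a mean of 374.3 ± 36.4 CPM (SD, n = 4) on 10% fat and 307.2 ± 5.47 (n = 4) on 44% fat (adjusted p = 0.6285). Cyp2j5 in CAST/EiJ M had 608.3 CPM on 10% fat (n = 3) and 664.1 CPM on 44% fat (n = 4), with adjusted p = 0.61. The sum of Cyp2a4 and Cyp2a5 in NZO/HlLtJ M had 409.5 ± 39.9 CPM on 10% fat (n = 4) and 321.9 ± 41.9 on 44% fat (n = 4), with adjusted p = 0.375. As in all tests of this fit, the spread was estimated over all 12 groups, not over the compared groups alone. Cyp2a4 alone was -0.38 ± 0.14 there (adjusted p = 0.13), and -0.49 without 44% fat replicate 2 (adjusted p = 0.0473). Cyp2j5 in CAST/EiJ, as the mean of both sexes, was 0.19 ± 0.06 (adjusted p = 0.0881). It was the DESeq2 call of that strain (adjusted p = 0.0498), and in edgeR it passed without F on 44% fat replicate 1 (0.22, adjusted p = 0.0394) or F on 10% fat replicate 3 (0.22, adjusted p = 0.0454).

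Whether strains respond differently to the diet is a question of the study. The diet effect differed between strains for 0 members in CAST/EiJ minus C57BL/6J (0.0532% of all genes passed), 0 in NZO/HlLtJ minus C57BL/6J (0.0373%) and 1 in NZO/HlLtJ minus CAST/EiJ (1.28%). The unadjusted counts of the first pair were 1 and 2, and DESeq2 and limma called 0 in both. The call was Cyp2j11 (-0.27 ± 0.07, adjusted p = 0.0405), which was 0.09 ± 0.05 on 44% fat in CAST/EiJ (adjusted p = 0.44) and lower on 44% fat in NZO/HlLtJ. It ended when any 1 of 15 of the 31 libraries was left out (adjusted p of 0.0503 to 0.0986), in limma (0.0566) and in a fit of those strains alone (0.0836). Cyp7b1 did not pass in this contrast at -0.92 ± 0.28 (adjusted p = 0.0987), whose means on 10% and on 44% fat were 8.79 and 15.9 CPM in CAST/EiJ F, and 7.45 and 5.01 CPM in NZO/HlLtJ F. Without NZO/HlLtJ F on 10% fat replicate 1 its adjusted p was 0.0401 (-1.06). The diet effect in F minus that in M passed for 0 members in C57BL/6J (0% of all genes), CAST/EiJ (0.0479%) and NZO/HlLtJ (0.00532%). The unadjusted counts were 0, 0 and 2, and DESeq2 called 0, 0 and 1 (Cyp2e1, adjusted p = 0.0441) and limma 0 in each.

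**Figure D4:**
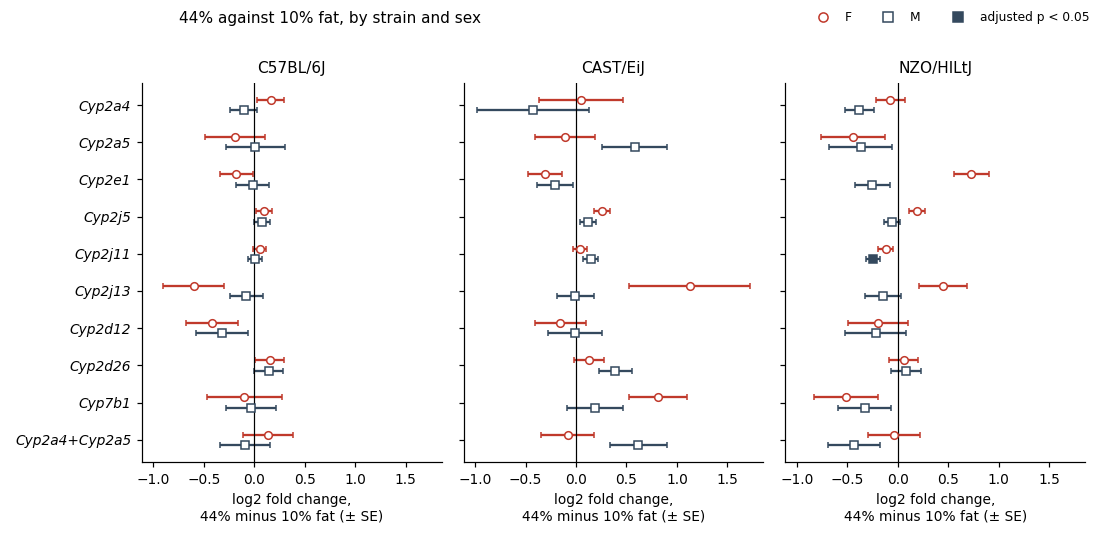
Log2 fold change, 44% minus 10% fat, with its SE for each member and the sum in F (red circles) and M (dark squares) of the 3 strains, filled where the adjusted p was below 0.05. Cyp2j11 in NZO/HlLtJ M, at -0.25, is the 1 filled symbol, and most intervals of 1 SE cross or come close to 0.

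The gene lists that follow can be read against all genes tested, of which 25.1%, 23.7% and 25.4% were higher and 22.7%, 23.9% and 24.5% lower in F in C57BL/6J, CAST/EiJ and NZO/HlLtJ. The other Cyp2 genes numbered 26, of which 19 passed the filter on low counts. In C57BL/6J 4 were higher and 4 lower in F, in CAST/EiJ 7 and 4, and in NZO/HlLtJ 5 and 4. Their median log2 fold changes were 0.42, 0.38 and -0.11. Cyp2d9, a known male-specific steroid hydroxylase of mouse liver, had medians of 5.99 CPM in F and 101.8 CPM in M of C57BL/6J, 2.87 and 71.9 CPM in CAST/EiJ and 2.93 and 62.2 CPM in NZO/HlLtJ. It was lower in F (log2 fold changes of -3.94, -4.51 and -4.37, largest adjusted p = 5.75e-16), the opposite direction to Cyp2d26. Cyp2d22, Cyp2c44, Cyp2s1 and Cyp2u1 were higher in F in all 3 strains, Cyp2c44 by 1.33 ± 0.16, 0.89 ± 0.19 and 2.09 ± 0.20. Cyp2j9 and Cyp2b10 were lower in F in all 3. Cyp2b10 had M medians of 1.40, 18.7 and 0.787 CPM and F medians of at most 0.123 CPM. Cyp2j6 was higher in F in CAST/EiJ (0.45 ± 0.06, adjusted p = 1.17e-07) and was -0.04 ± 0.05 (adjusted p = 0.567) and -0.12 ± 0.05 (adjusted p = 0.0505) in C57BL/6J and NZO/HlLtJ. Cyp2f2 passed in C57BL/6J alone (-1.10 ± 0.41, adjusted p = 0.0265), and Cyp2r1 in no strain.

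Among the partners that supply P450 enzymes with electrons or heme, more genes were lower than higher in F. Of 20 such genes 3 were higher and 11 lower in F of C57BL/6J, 5 and 9 in CAST/EiJ, and 4 and 10 in NZO/HlLtJ, with medians of -0.25, -0.12 and -0.17. Cyb5a, the microsomal cytochrome b5, had medians of 198.8 CPM in F and 549.4 CPM in M of C57BL/6J, and F minus M was -1.525 ± 0.05, -0.99 ± 0.05 and -1.35 ± 0.05 in the 3 strains. Cyb5r3, its reductase, was at -0.84 ± 0.05, -1.06 ± 0.05 and -0.78 ± 0.05, and Cpox, an enzyme of heme synthesis, at -1.32 ± 0.06, -1.11 ± 0.06 and -1.145 ± 0.06. Cyb5b, of the outer mitochondrial membrane, differed less, by -0.53, -0.43 and -0.51. These 4 genes were named for having the smallest adjusted p of F against M in the list, and all of their values passed.

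Genes around the oxysterol reaction of Cyp7b1 were split. Of 17 other genes of oxysterol, bile acid and androgen metabolism, 15 were tested: 3 were higher and 8 lower in F of C57BL/6J, 7 and 5 in CAST/EiJ, and 4 and 9 in NZO/HlLtJ. Amacr, a racemase of bile acid intermediates and branched fatty acids, was lower in F (log2 fold changes of -2.16, -1.65 and -1.84), and Hsd17b11 was at -2.47, -1.27 and -2.37. Hsd17b4 was lower in F in each strain (-0.31, -0.91 and -0.16). Acox2 was higher in F in CAST/EiJ (1.01 ± 0.06, adjusted p = 1.00e-17) and NZO/HlLtJ (0.18 ± 0.06, adjusted p = 0.00952), and was -0.11 ± 0.06 in C57BL/6J (adjusted p = 0.137). Of 12 genes of oxysterol sensing, 3 were higher and 3 lower in C57BL/6J, 4 and 3 in CAST/EiJ and 3 and 5 in NZO/HlLtJ. The receptor Nr1h3 was -0.485 ± 0.05 in CAST/EiJ (adjusted p = 5.47e-11), -0.11 in NZO/HlLtJ (adjusted p = 0.0416) and -0.09 in C57BL/6J (adjusted p = 0.124), its paralogue Nr1h2 was between -0.17 and -0.28, and the cholesterol transporter Npc1 between -0.30 and -0.56. Insig1, a sterol-sensing retention protein, was lower in F in C57BL/6J (-0.57) and NZO/HlLtJ (-0.55), and was 0.23 ± 0.12 in CAST/EiJ (adjusted p = 0.124).

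Of 14 genes of epoxide hydrolysis and arachidonic acid use, which act beside the CYP2J epoxygenases, 10 were higher and 1 lower in F of C57BL/6J, 12 and 1 in CAST/EiJ, and 9 and 1 in NZO/HlLtJ, where 25.1%, 23.7% and 25.4% of all genes were higher. Their medians were 0.51, 0.58 and 0.56, beside 0.05, 0.05 and 0.04 over all genes. Ephx2, the soluble epoxide hydrolase, which degrades the products of CYP2J enzymes, was lower in F (-1.85 ± 0.07, -2.095 ± 0.07 and -1.74 ± 0.07), the direction of Cyp2j5 and Cyp2j13. Hpgd, which inactivates prostaglandins, was higher in F (1.54 ± 0.13, 0.42 ± 0.14 and 2.58 ± 0.13), as was Ptgds (0.66, 0.31 and 1.11). Alox15 had a median of 15.5 CPM in CAST/EiJ F and 0.591 CPM in CAST/EiJ M (4.69 ± 0.30, adjusted p = 6.39e-16), and medians of at most 0.0905 CPM in the other strains.

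Among 24 receptors and factors known to regulate P450 genes, 9 were higher and 7 lower in F of C57BL/6J, 9 and 8 in CAST/EiJ and 9 and 11 in NZO/HlLtJ. Of all genes, 47.9%, 47.6% and 49.9% passed in either direction. The prolactin receptor Prlr was higher in F, with medians of 383.3 and 7.38 CPM in F and M of C57BL/6J, 94.6 and 11.5 CPM in CAST/EiJ and 323.9 and 5.29 CPM in NZO/HlLtJ. The F minus M value of Prlr was 5.03 ± 0.29, 2.86 ± 0.29 and 5.53 ± 0.30. The oestrogen receptor Esr1 was lower in F (-1.51 ± 0.09, -0.35 ± 0.09 and -1.29 ± 0.08). Nr1i2, the pregnane X receptor, was higher in F (1.29, 1.08 and 1.21), and Rxra, the partner of many nuclear receptors, was lower (-0.47, -0.33 and -0.47). All of these values passed.

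The genes most like each member were found by Pearson's r over the 12 group means of log2 CPM, given here as a description. For Cyp2a4 they were RP23-53N23.3 (r = 0.998), Rpl27-ps3 (0.998) and Gm6741 (0.9975). RP23-53N23.3 and Gm6741 were at 0 in CAST/EiJ, and Rpl27-ps3 at 83.6 CPM in C57BL/6J F and 0.345 CPM in CAST/EiJ F. Cyp2a5 was most like 2900026A02Rik (0.958), Hsf2bp (0.9305) and Dync2h1 (0.925). For Cyp2j13 they were Kdm5d (0.99), a gene of the Y chromosome at 34.3 CPM in C57BL/6J M and 0.026 CPM in C57BL/6J F, Tmem178 (0.9895) and Fam208a (0.988). Cyp2e1 was most like Galns (0.995), Cpox (0.9925) and Serpinf2 (0.992), and Cyp7b1 like Plekha8 (0.987), Slco3a1 (0.987) and Timd2 (0.977). Timd2 was at 2.82 CPM in F and 66.5 CPM in M of C57BL/6J.

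Cyp2j5 was most like Pnp (0.992), Ppil1 (0.989) and Ces2c (0.988), which were lowest in CAST/EiJ as well. For Cyp2j11 the genes were Hint3 (0.961), Faap20 (0.949) and Gm20634 (0.947), for Cyp2d12 they were Tmem220 (0.986), Ccdc17 (0.983) and Slc48a1 (0.982), and for Cyp2d26 they included Rfk (0.986) and Rab3d (0.986). Among the members themselves, the lowest r was that of Cyp2a4 with Cyp2d12 (-0.933), followed by Cyp2e1 with Cyp2d26 (-0.902) and Cyp2a4 with Cyp2a5 (-0.817). The 12 points share strains and sexes, so a strain difference in 1 direction is enough for a high value.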

How the data were processed

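Kidney RNA of 47 mice was measured by paired-end sequencing of 100-base reads, per the labels' protocols. The authors deposited expected counts per gene (21% not whole) and, on a log2 scale, variance-stabilized values of those genes. The genome build was GRCm38 and DESeq2 was used, per the submitters' processing notes; the aligner and counting tool are not given in the sources used here. Expected counts were rounded, and genes kept by filterByExpr over the 12 groups. TMM-scaled counts were fitted with edgeR 4.0.16 (R 4.3.3; robust quasi-likelihood) using 12 group means and a term for the 3 ID runs, leaving 33 residual degrees of freedom. Each of 27 contrasts was tested with the quasi-likelihood F test, Benjamini-Hochberg adjusted over 18786 genes, and adjusted p under 0.05 passed. SEs come from the F statistic. The sum of Cyp2a4 and Cyp2a5 was fitted in place of their rows (with a library left out, as an added row). CPM per kilobase used the joined length of all GENCODE M21 exons of a gene. Counts of 18786 genes were simulated for F against M in C57BL/6J, with group means of that strain otherwise equal. For each fold 50 genes were changed, none of low average level. Of changes of 1.25-, 1.5-, 2- and 4-fold, 60%, 90%, 100% and 100% were recovered, and 5.41% of calls were false. Fewer genes changed than in the data, and changes in diet contrasts or at low counts were not simulated. These rates need not hold there. Alternatives were DESeq2 1.42.0 (Wald test, or its size factors in edgeR), limma 3.58.1 on the log2 matrix, no filter, no run term, 10% fat groups only, the strains compared only, and each library left out. Nothing says whether libraries of a group came from separate litters or cages, so p-values cover only the spread among the libraries, which may be technical. Each gene had 1 estimate of spread over all groups of a fit, so its p-values do not measure the spread of the compared groups alone. The members and gene lists were chosen with earlier results of these data known. Named beside the members are up to 10 other Cyp2 genes by mean CPM, 4 genes per list by smallest adjusted p, and the 3 genes most correlated with each member. For Cyp2d26, 1 of these 3 is not reported here.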

Additional observations from a re-analysis of the deposited data

Results flagged for a closer look

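The F minus M effect of several members differed between strains by a test of the difference itself (edgeR's quasi-likelihood test, adjusted over all genes). For CAST/EiJ minus C57BL/6J the log2 differences were 1.31 for Cyp2a4, 2.44 for Cyp2a5, 1.10 for Cyp2e1, -2.28 for Cyp2j13, 4.07 for Cyp7b1 and 2.22 for the sum of Cyp2a4 and Cyp2a5. For NZO/HlLtJ minus C57BL/6J they were 1.00 for Cyp2a5, 0.96 for Cyp2j13 and 1.79 for Cyp7b1. For NZO/HlLtJ minus CAST/EiJ they were -1.04 for Cyp2a4, -1.44 for Cyp2a5, -1.08 for Cyp2e1, 3.24 for Cyp2j13, -2.28 for Cyp7b1 and -1.87 for the sum. In CAST/EiJ the Cyp2a4 effect rests on 6 to 29 counts per library in F and 3 to 13 in M. For Cyp2j13 the counts in CAST/EiJ F were 5 to 26 per library. The diet effect on Cyp2j11 in NZO/HlLtJ minus that in CAST/EiJ was -0.27.

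In 7 of 110 combinations of a gene (or the sum) with a group of 4 libraries, 1 library stood apart from the other 3 by Dixon's test, which chance flags in about 1 in 20 groups. Cyp2e1 was at 1981 CPM in NZO/HlLtJ M on 10% fat replicate 1, where the group median was 1417 CPM. Cyp7b1 was at 221.1 CPM in the same library (median 196.5 CPM). Cyp7b1 was at 194.6 CPM (median 241.9 CPM) and Cyp2j11 at 203.6 CPM (median 225.9 CPM) in C57BL/6J M on 10% fat replicate 4. Cyp2j5 was at 1803 CPM in C57BL/6J M on 44% fat replicate 4 (median 1892 CPM) and at 202.9 CPM in CAST/EiJ F on 10% fat replicate 4 (median 313.3 CPM). Cyp2d26 was at 51.8 CPM in CAST/EiJ F on 10% fat replicate 1 (median 72.7 CPM).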

How the results depend on the processing

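Of 6383 values of a member or the sum under an alternative, 6259 kept their side of the threshold, 113 lost a call and 11 gained one. Direction was compared only where the value passed in the main fit or the alternative, and 0 of those changed it. With the 10% fat groups alone, NZO/HlLtJ against C57BL/6J passed for 5 members in F and 2 in M, against 8 and 6. On those groups the differences in Cyp2a4 share were -88.9 points (CAST/EiJ minus C57BL/6J) and 91.2 points (NZO/HlLtJ minus CAST/EiJ) in F, and -88.0, 93.9 and, for NZO/HlLtJ minus C57BL/6J, 5.88 points in M, all short of the threshold: 4 against 4 libraries cannot go below an exact p of 0.0286, nor 4 against 3 below 0.0571, before adjustment. DESeq2 called 1 member, against 0, for diet in CAST/EiJ, diet in NZO/HlLtJ F and the sex difference of diet in NZO/HlLtJ. The count fell from 1 to 0 for diet in NZO/HlLtJ (strains compared only), in NZO/HlLtJ M (no run term, limma, or strains compared only) and for NZO/HlLtJ minus CAST/EiJ (limma, or strains compared only). With each library left out, these counts ran from 0 to 1 in CAST/EiJ, NZO/HlLtJ and NZO/HlLtJ F, and from 0 to 2 in NZO/HlLtJ M and in NZO/HlLtJ minus CAST/EiJ. Shares, F minus M, ran from -0.276 to -0.113 points in CAST/EiJ and from -2.29 to -1.19 in NZO/HlLtJ, and NZO/HlLtJ minus C57BL/6J in F from 1.81 to 2.91. Each of these 3 share differences, short of the threshold with all libraries, passed in 2 of the fits. The causes were not tested, beyond the fewer samples in some fits. Cyp2a4 in CAST/EiJ rests on 3 to 29 counts per library, and the reason for these low counts was not tested. No paired analysis was possible because the labels give no replicate numbers, and those used here follow accession order; the ID runs entered the fit as a term.

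Over all genes, the number called moved by over 1.5 times in these cases. NZO/HlLtJ against C57BL/6J called 7075 genes in F and 8001 in M, and 4169 and 5250 with the 10% fat groups alone. For diet as the mean of both sexes in C57BL/6J, CAST/EiJ and NZO/HlLtJ, the counts were 5, 186 and 680, and 0, 47 and 273 in fits of 1 strain. DESeq2 called 24 in C57BL/6J and 421 in CAST/EiJ, and the fits without the filter or the run term 2 each in C57BL/6J. Within a sex, diet called 0 genes in C57BL/6J F (DESeq2 16), 1 in C57BL/6J M (DESeq2 5, limma 3, strain alone 0), 27 in CAST/EiJ F (64 in DESeq2, 0 alone) and 109 in CAST/EiJ M (279 and 20). It called 28 in NZO/HlLtJ F (DESeq2 132, no run term 67, no filter 17, strain alone 0) and 659 in NZO/HlLtJ M (DESeq2 1042, strain alone 109). The diet effect differed for 10 genes in CAST/EiJ minus C57BL/6J (DESeq2 44, limma 6, no filter 6, strains alone 0) and for 7 in NZO/HlLtJ minus C57BL/6J (DESeq2 22, its size factors 3, no filter 0, strains alone 1). In NZO/HlLtJ minus CAST/EiJ it was 241 (DESeq2 500, strains alone 62). Between the sexes it differed for 0 genes in C57BL/6J (DESeq2 1), 9 in CAST/EiJ (DESeq2 28, limma 20, no filter 5, strain alone 0) and 1 in NZO/HlLtJ (DESeq2 36, limma 3, strain alone 0).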
